A study of Mus musculus with 16 samples.

Results

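The clustered histone genes of the mouse were followed across chromatin profiles of haploid spermatids. They comprise every protein-coding gene of the GENCODE vM21 annotation (mm10) whose symbol starts with Hist1h, Hist2h, Hist3h or Hist4h, which gave 67 of 21938 genes. By class, 6 encode linker histone H1, 18 encode H2A, 18 encode H2B, 12 encode H3 and 13 encode H4. By locus, 54 lie in the Hist1 cluster on chromosome 13, 10 in the Hist2 cluster on chromosome 3, 2 in the Hist3 cluster on chromosome 11 and 1, Hist4h4, on chromosome 6. Hist1h1t, Hist1h2ba and Hist1h2aa, the genes of the testis-specific histones H1t, TH2B and TH2A, were set apart from the other 64.

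Most clustered histone genes are replication-dependent: they lack introns, are transcribed during S phase and yield messages that end in a conserved stem loop in place of a poly(A) tail. The testis members are instead active in meiotic germ cells, where their products enter chromatin before transition proteins and protamines replace the histones in the later spermatid. Trimethylation of histone H3 at lysine 4 (H3K4me3) marks promoters that are active or ready to be used, trimethylation at lysine 27 (H3K27me3) is laid down by Polycomb repressive complexes at silenced developmental genes, and trimethylation at lysine 9 (H3K9me3) marks constitutive heterochromatin.

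The study asked what the loss of the short H2A variant H2A.B does to chromatin in male germ cells. Haploid cells of 2-month-old males were sorted on Hoechst and propidium iodide fluorescence and profiled by AutoCUT&RUN, in which a nuclease tethered by an antibody releases the DNA fragments around its target. KO animals were hemizygous for a CRISPR-made disruption of all 3 X-linked H2A.B genes (H2afb1, H2afb2 and H2afb3) from a single strain backcrossed to C57BL/6J, and WT animals were their siblings. H3K4me3, H3K27me3, H3K9me3 and an IgG control were each profiled in 2 sibling pairs, which gave 16 libraries in 8 groups of 2.

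Distinct fragments, counted once per library for each set of coordinates, ranged from 159611 to 6746382. The IgG libraries were the smallest with 159611 to 270598, and the H3K27me3 libraries of replicate 2 held 200457 (WT) and 711758 (KO) against 2891646 and 3806026 for replicate 1. With H3K4me3 the deposited lists repeated 49.5% to 83.4% of their fragments. At the H2afb1 window 25 fragments were counted over the 8 WT libraries and 31 over the 8 KO libraries, so these counts do not check the genotype. Among markers of haploid spermatids, 6 of 7 were called higher in H3K4me3 than in H3K27me3 in WT, against 47.1% of all genes tested. So were 4 of 4 spermatocyte markers, 0 of 4 spermatogonial markers, 1 of 4 Sertoli cell markers, 0 of 4 Leydig cell markers, 0 of 2 peritubular cell markers and 0 of 2 macrophage markers. Called higher in H3K27me3, against 21.5% of all genes, were 3 of 4 spermatogonial, 3 of 4 Sertoli cell, 1 of 4 Leydig cell and 2 of 2 peritubular cell markers. For the other cell types this count was 0.

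The promoters around which the marks were counted are shown for the testis genes and for 1 member at the other end of the range. Each runs from 250 bases before to 50 bases after the annotated start (mm10, read 5′ to 3′ on the gene's strand), and capitals mark 4 short motifs, 3 of them found on either strand. The CCAAT box was searched by the letters of its name. The TATA box was searched as TATAAA on the gene's strand only, and the H1 box, found before many linker histone genes, as AAACACA. The octamer of H2B promoters was searched as ATTTGCAT, and no motif contains another. Hist1h1t lies at chr13:23695564-23695863 on the plus strand. The Hist1h2aa promoter, chr13:23934212-23934511 on the plus strand, covers most of the stretch between its start and that of Hist1h2ba, which is read in the other direction from 306 bp away. Hist1h1b, chr13:21780576-21780875 on the minus strand, carried the highest WT H3K27me3 density of the members.
Hist1h1t: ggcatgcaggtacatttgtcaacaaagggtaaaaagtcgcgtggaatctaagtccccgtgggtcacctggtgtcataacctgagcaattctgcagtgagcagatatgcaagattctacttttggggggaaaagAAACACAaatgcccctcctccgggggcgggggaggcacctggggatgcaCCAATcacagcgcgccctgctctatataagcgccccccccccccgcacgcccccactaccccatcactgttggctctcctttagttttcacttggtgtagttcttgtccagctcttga
Hist1h2aa: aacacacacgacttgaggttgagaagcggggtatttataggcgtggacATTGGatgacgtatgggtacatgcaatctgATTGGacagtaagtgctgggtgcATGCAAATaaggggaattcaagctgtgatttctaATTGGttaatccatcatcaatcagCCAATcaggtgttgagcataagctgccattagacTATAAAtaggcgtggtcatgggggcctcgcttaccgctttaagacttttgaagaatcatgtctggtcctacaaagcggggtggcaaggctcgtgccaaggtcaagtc
Hist1h1b: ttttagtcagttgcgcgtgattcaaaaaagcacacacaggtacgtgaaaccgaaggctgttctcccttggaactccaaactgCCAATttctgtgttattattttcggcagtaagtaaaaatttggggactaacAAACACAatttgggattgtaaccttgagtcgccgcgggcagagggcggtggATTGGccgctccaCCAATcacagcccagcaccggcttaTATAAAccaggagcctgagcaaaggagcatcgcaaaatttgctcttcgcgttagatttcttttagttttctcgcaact

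These short motifs were common among the members. CCAAT occurred in 56 of 67 promoters (83.6%) against 39.0% of all 21938 protein-coding promoters of the same length, and in 18 of 18 H2A and 18 of 18 H2B promoters but 4 of 13 H4 promoters. TATAAA occurred on the gene's strand in 30 of 67 (44.8%) against 8.68% of all, and on either strand in 37 (55.2%) against 12.6%. The octamer ATTTGCAT occurred in 15 of 67 (22.4%) against 1.57% of all, with 7 H2A and 8 H2B genes and none of the other classes. The promoters of head-to-head H2A and H2B genes overlap. A single CCAAT or octamer site can therefore count for both partners, as the octamer does in Hist1h2aa and Hist1h2ba. AAACACA occurred in 9 of 67 (13.4%) against 6.395% of all, 4 of them among the 6 H1 genes.

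The stem loop was read from the 100 bases after each stop codon to show how far the testis genes share the replication-dependent 3′ end. The most common 16-base word, with arms of 6 bases in capitals around a loop of 4, was found in 41 of 67 members, Hist1h2aa among them. Hist1h1t and Hist1h2ba shared a word with 1 difference from it, which 9 members carried. Another word, with 2 differences, was found in 8 members, all H4 genes.
Hist1h2aa: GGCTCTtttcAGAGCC
Hist1h1t and Hist1h2ba: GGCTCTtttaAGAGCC
Hist1h4d: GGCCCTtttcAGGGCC
In all, 61 members had a word with at most 2 differences and 5 had 3 or 4, all of these H4 genes. The exception was Hist2h2be, an H2B gene whose nearest word had 7 differences.

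Fragments were counted for each gene over its body with 500 bp on either side. The genes have a median length of 539 bp, and the 67 windows merge into 40 regions of 163427 bp in all. Divergent neighbours therefore share fragments. The window of Hist1h2be, annotated over 37455 bp, also covers the 3′ part of Hist1h1e. Levels below are distinct fragments per kb of window per 1000000 library fragments (density). Of all 25-base words in a member's window, between 1.54% (Hist1h1t) and 100% recurred elsewhere in the genome, with a median of 26.1%. Hist1h2ao, Hist1h2ap, Hist1h2bq and Hist1h2br were at 100%, so the fragments counted at each of these 4 cannot be assigned to it with certainty.

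The members did not carry a common chromatin state. In WT some had H3K4me3 and almost no H3K27me3, others had the reverse, and a few had both. Compared within windows of 500 bp on either side of the annotated start, the median H3K4me3 level over the 67 members was 5.33 fragments per 1000000 in WT, against 2.19 over all protein-coding genes. For H3K27me3 the medians were 5.09 and 0.173, and the median member stood at percentile 81.0 of all genes, against 62.8 for H3K4me3. In KO the H3K27me3 medians were 5.44 and 0.131. H3K9me3 had low medians, of 0.244 in members and 0.0998 in all genes in WT, and its median member stood at percentile 77.3 of all genes. Both medians lay below 0.269, the level of 3 fragments over the WT group, so this percentile rests on very few fragments. The IgG median was 0 in both sets.

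**Figure D1:**
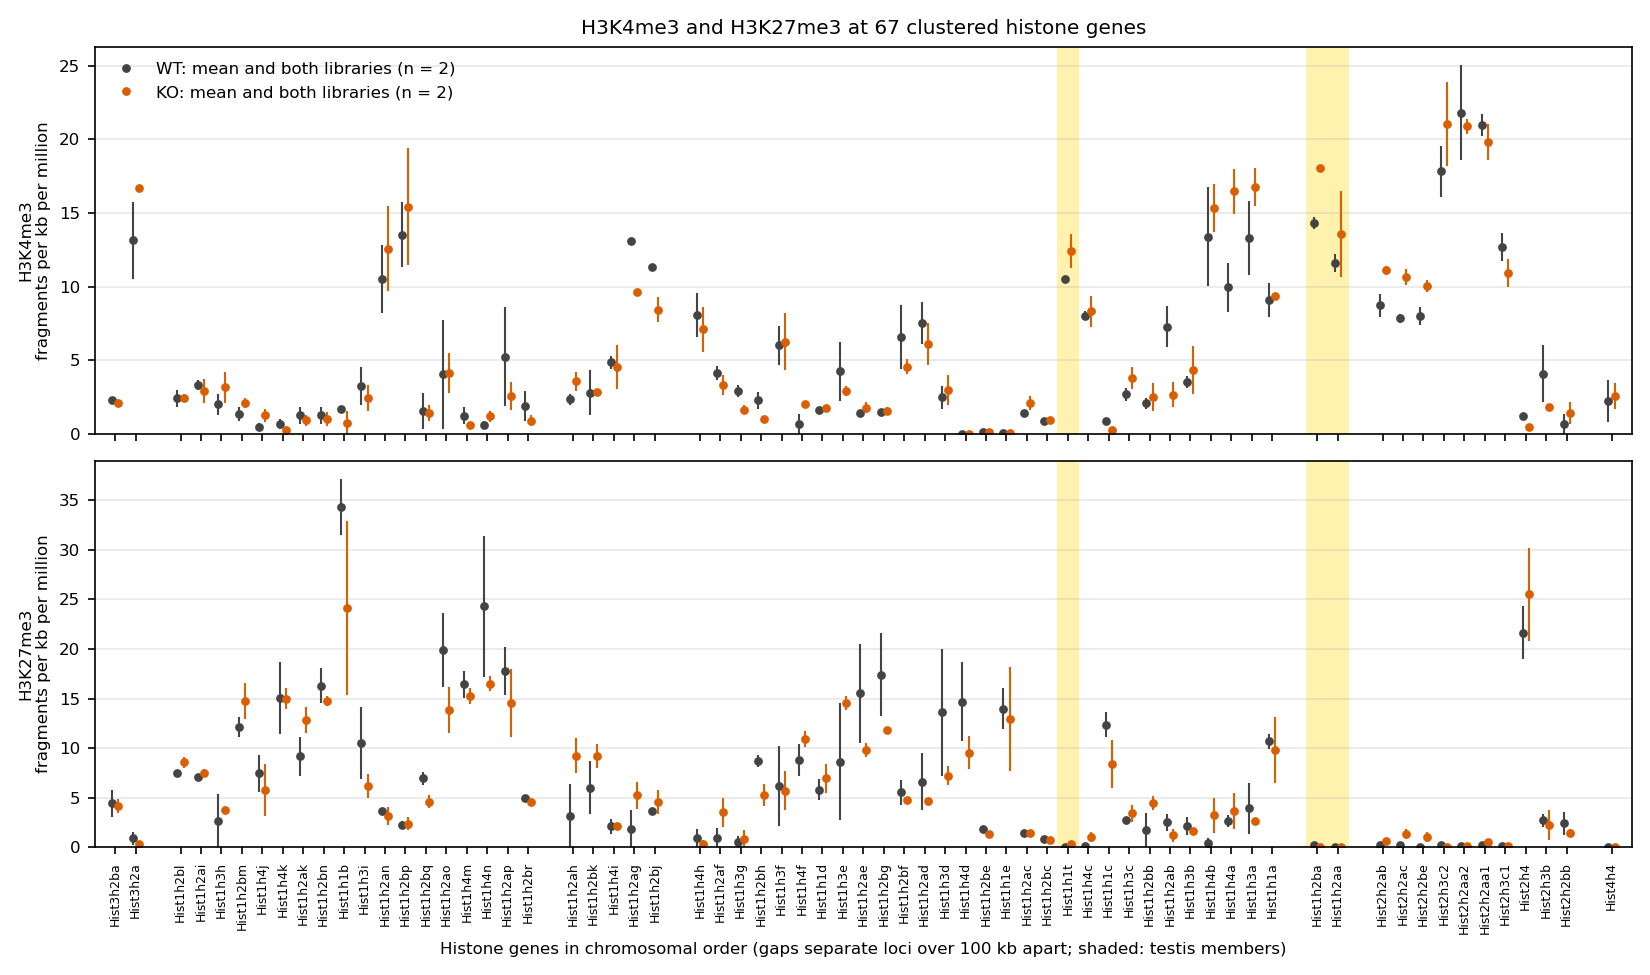
Fragment density (fragments per kb per 1000000) of H3K4me3 (top) and H3K27me3 (bottom) at the 67 members in chromosomal order, with points for the means of WT (grey) and KO (orange) and lines joining the 2 libraries. The shaded testis members have H3K4me3 means of 10.5 to 18.1 and H3K27me3 means of at most 0.344, while Hist1h1b and Hist2h4 have the opposite order.

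H3K4me3 and H3K27me3 were first compared directly, with limma-voom on all genes and Benjamini-Hochberg adjustment. Each library is scaled to its own total, so a call says which mark took the larger share of its library and not which was more frequent on nucleosomes. In WT 17 of 67 members (25.4%) were called higher in H3K4me3, against 47.1% of all 20055 genes tested, and 22 (32.8%) were called higher in H3K27me3, against 21.5% of all genes. In KO the counts were 19 and 23, against 50.8% and 22.0% of all genes. The median log2 ratio of H3K4me3 to H3K27me3 was -0.25 over members and 1.57 over all genes in WT, and -0.32 and 1.77 in KO. Of the members called for H3K4me3, 16 were called in both genotypes, as were all 22 called for H3K27me3 in WT, and 0 had opposite calls. Leaving out H3K27me3 replicate 1 lowered the counts for H3K4me3 in both genotypes. The share of all genes called fell too and stayed above that of the members. Leaving out H3K4me3 replicate 2 lowered the counts for H3K27me3 in both genotypes. The share of all genes called in that direction was not compared in these fits, so they do not show whether the members stayed above it.

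Across the 67 members the densities of both marks were inversely ordered. Spearman's rho between H3K4me3 and H3K27me3 densities was -0.55 and -0.58 in the 2 WT animals and -0.66 and -0.44 in the 2 KO animals, as a description over genes whose windows partly overlap. Between replicates rho was 0.84 (WT) and 0.94 (KO) for H3K4me3 and 0.83 and 0.90 for H3K27me3. For H3K9me3 it was 0.062 and 0.20, so the order of the members in that mark did not repeat.

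**Figure D2:**
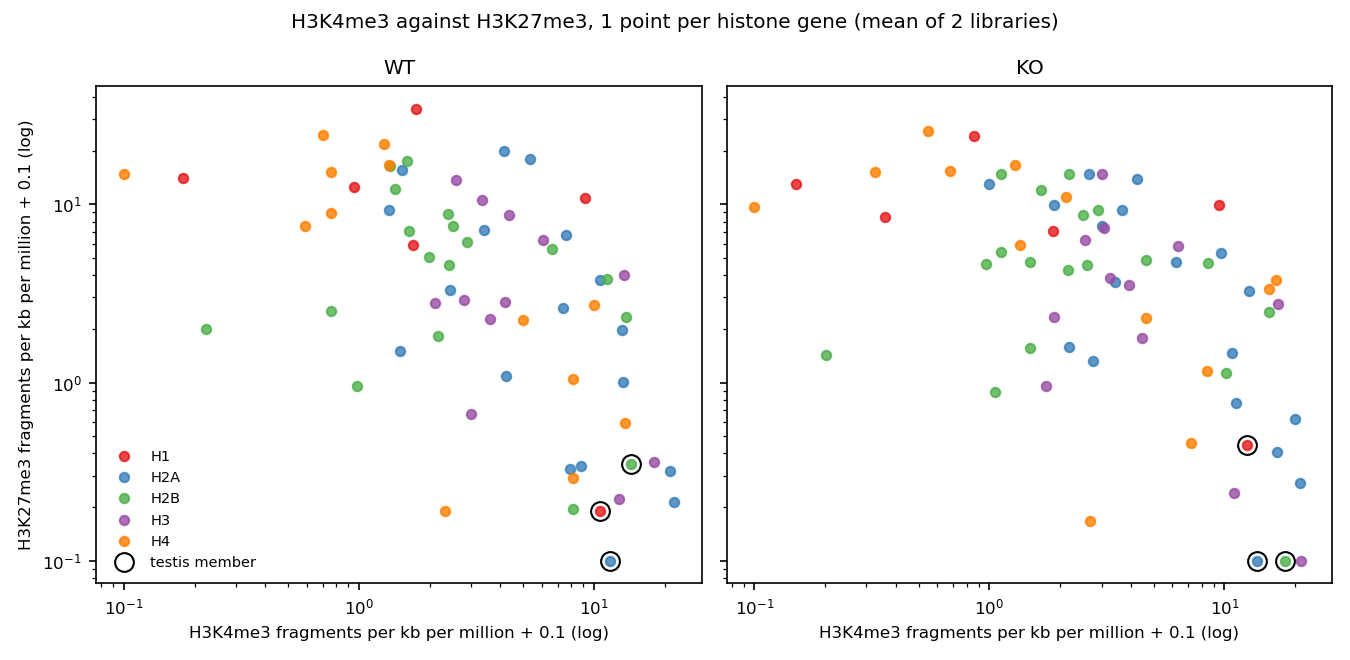
H3K4me3 (x axis) against H3K27me3 (y axis) density, both as fragments per kb per 1000000 plus 0.1 on log scales, for WT and KO, with 1 point per gene (mean of 2 libraries) coloured by histone class and testis members circled. Points run from the upper left to the lower right with rho between -0.44 and -0.66 in single animals, and the testis genes lie at the lower right in both panels.

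The testis genes belonged to the H3K4me3 side. Hist1h1t (chr13:23695814-23696725) encodes the linker histone of spermatocytes and spermatids. It had 16 and 43 H3K4me3 fragments in the WT libraries and 35 and 73 in the KO libraries, against 1 and 0 (WT) and 5 and 0 (KO) with H3K27me3 and 0 in each of the 4 IgG libraries. Every H3K4me3 library was thus above every H3K27me3 and IgG library in counts. Its H3K4me3 density was 10.5 ± 0.253 in WT and 12.4 ± 1.65 in KO (mean ± SD, n = 2).

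Hist1h2ba (chr13:23933773-23934156) and Hist1h2aa (chr13:23934462-23934851) encode the H2B and H2A variants that form the testis H2A-H2B dimer, and their windows overlap. Hist1h2ba had 16 and 42 H3K4me3 fragments in WT and 34 and 84 in KO, with 2 and 0 H3K27me3 fragments in WT and 0 in both KO libraries. Hist1h2aa had 12 and 37 in WT and 20 and 78 in KO, and 0 H3K27me3 fragments in each of the 4 libraries. Neither gene had an IgG fragment. Hist1h2ba reached an H3K4me3 density of 14.3 ± 0.584 in WT and 18.1 ± 0.247 in KO and ranked 4 among the 67 members in both genotypes.

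All 3 testis genes were called higher in H3K4me3 than in H3K27me3 in both genotypes. For Hist1h1t the fitted log2 ratio was 4.28 ± 0.97 (SE) in WT with an adjusted p of 0.000507 by limma-voom. Over both WT libraries, Hist1h2aa was at least 17.0-fold higher in H3K4me3, taking 3 fragments over the group as the floor for H3K27me3, and in KO at least 31.1-fold. The ratio for Hist1h2ba in WT, from 58 and 2 fragments, was 30.2 with a 95% counting interval of 8.002 to 255.6. These intervals and floors cover counting error only.

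Against IgG the testis genes were also called in WT, with log2 differences of 2.71 ± 0.66 (Hist1h1t), 2.68 ± 0.65 (Hist1h2ba) and 2.43 ± 0.70 (Hist1h2aa) and limma-voom adjusted p of 0.0105, 0.0103 and 0.0197. Since IgG was at 0, the counts themselves bound these ratios only at 2.13, 2.10 and 1.77. Under other settings the differences ranged from 1.99 to 5.45, 2.07 to 5.31 and 1.83 to 5.01, each highest with every deposited fragment. Without single libraries they stayed between 2.36 and 2.76, but all 3 calls were lost when either WT IgG library was left out, and that of Hist1h2aa also without H3K4me3 WT replicate 2.

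Among all members the testis genes ranked 14 (Hist1h1t), 4 (Hist1h2ba) and 11 (Hist1h2aa) in WT H3K4me3 density. In windows around the start they stood at percentiles 89.0, 94.0 and 93.5 of all genes in WT, and at 78.6, 95.2 and 92.9 in KO. Their WT median of 13.8 fragments per 1000000 compares with 4.98 for the other 64. For H3K27me3 the same medians were 0.173 and 5.26 in WT and 0 and 5.70 in KO. Other members reached equal or higher H3K4me3, so the level did not set the testis genes apart by itself.

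H3K9me3 at the testis genes came to 7 fragments (Hist1h1t), 9 (Hist1h2ba) and 11 (Hist1h2aa) over both WT libraries. Relative to library size this was far below H3K4me3, with limma-voom log2 ratios of H3K4me3 to H3K9me3 of 4.94 ± 0.70, 4.67 ± 0.68 and 4.08 ± 0.69. Hist1h2aa and Hist1h2ba nonetheless ranked 1 and 2 of 67 in WT H3K9me3 density, at 0.683 and 0.556, and 4 and 7 in KO, while Hist1h1t ranked 12 in WT and 54 in KO. These ranks rest on the few fragments just given, in windows that overlap for the first pair, and the order of the members in this mark did not repeat between replicates.

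**Figure D3:**
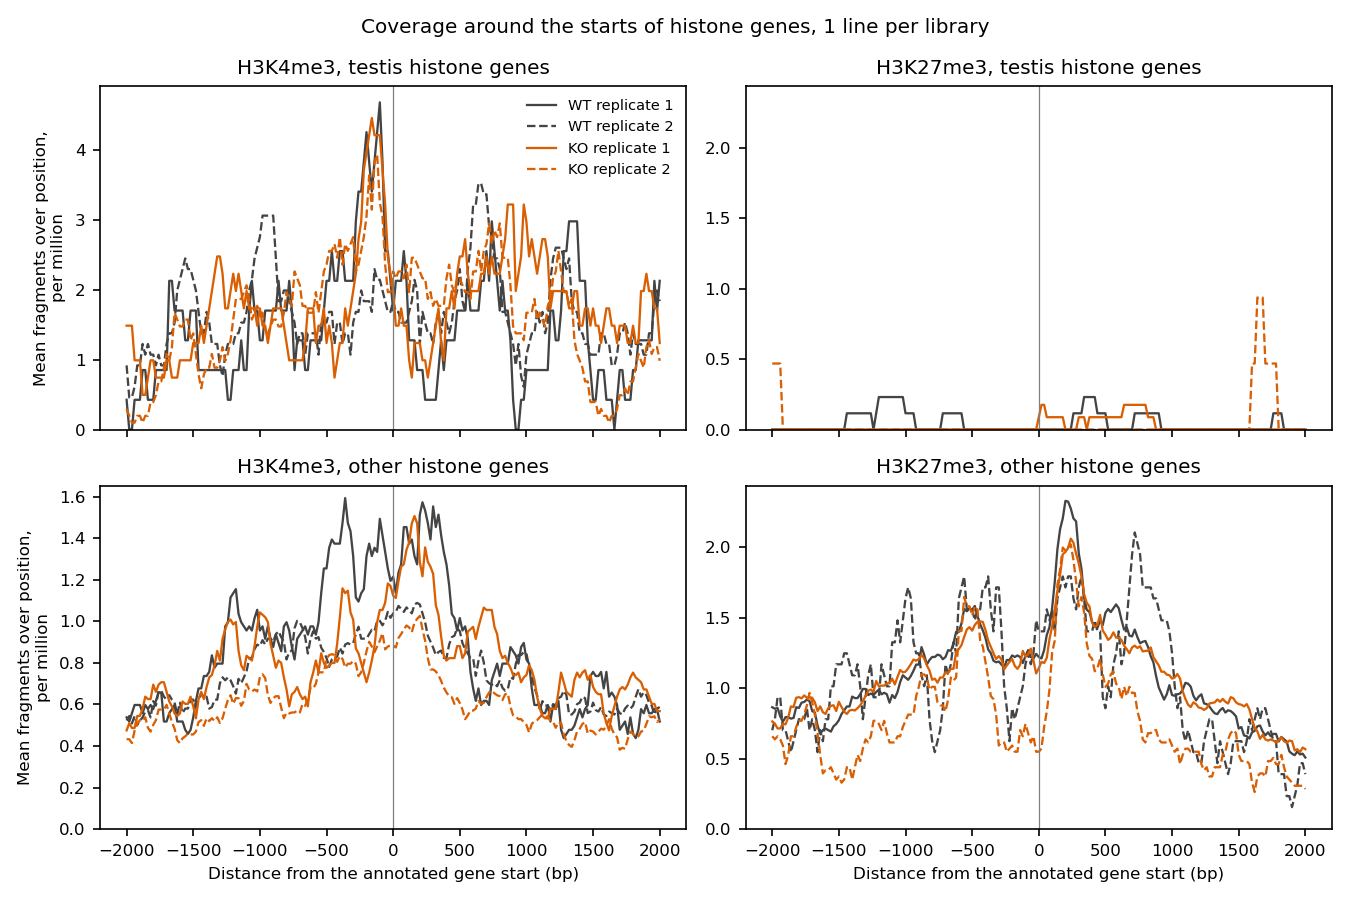
Mean number of fragments over each position, per 1000000 fragments of the library, from 2000 bp before to 2000 bp after the annotated start, for the 3 testis genes (top) and the other 64 (bottom), with H3K4me3 on the left, H3K27me3 on the right and 1 line per library. Vertical scales differ between the H3K4me3 panels and are equal in the H3K27me3 panels, where the testis genes reach at most 0.937 and the other members 2.33.

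Coverage over the testis genes was highest upstream of the start in 3 of the 4 H3K4me3 libraries. The mean H3K4me3 profile of the testis genes peaked at -120 bp in WT and at -140 bp in KO, between the divergent starts in the case of Hist1h2ba and Hist1h2aa, at 3.02 and 3.90 fragments per 1000000. The position was -140 bp in WT replicate 1 and in both KO libraries, but WT replicate 2 peaked 660 bp downstream at 3.39 and reached 2.08 within 300 bp before the start, so the mean position in WT rests on replicate 1. Over the other members H3K4me3 peaked 220 bp (WT) and 140 bp (KO) downstream at 1.25 and 1.21. H3K27me3 over the other members peaked 200 bp and 220 bp downstream at 2.01 and 1.99, and fell to 0.694 and 0.638 beyond 1500 bp from the start. In the shallow WT replicate 2 of H3K27me3 the peak was 720 bp downstream.

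The highest H3K4me3 was found in the Hist2 cluster on chromosome 3. Hist2h2aa2 and Hist2h2aa1, H2A genes, had densities of 21.8 ± 4.54 and 21.0 ± 1.04 in WT (SD, n = 2). Hist2h2aa2 had 30 and 62 H3K4me3 fragments in WT and 42 and 111 in KO, against 1 and 0 in WT and 2 and 0 in KO with H3K27me3, and IgG gave 0 to 2. Its neighbour Hist2h3c2, an H3 gene, had 31 and 71 H3K4me3 fragments in WT and 65 and 125 in KO, and 3 and 0 with H3K27me3 in WT. Of the 25-base words in the windows, 81.0% (Hist2h2aa2), 78.8% (Hist2h2aa1), 56.0% (Hist2h3c2) and 41.02% (Hist2h3c1) recurred elsewhere, so the split of fragments between the genes of each class is uncertain. In all, 7 of the 10 Hist2 members were called higher in H3K4me3 than in H3K27me3 in both genotypes.

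Hist2h4, an H4 gene, went against its neighbours. It had 2 and 8 H3K4me3 fragments in WT and 2 and 3 in KO, but 185 and 10 H3K27me3 fragments in WT and 302 and 39 in KO. Of the 25-base words in its window 5.41% recurred elsewhere in the genome. Its H3K27me3 density of 21.6 ± 3.79 in WT was exceeded only by Hist1h1b and Hist1h4n among the 67 members, and the log2 ratio of H3K4me3 to H3K27me3 was -4.13 ± 0.80 in WT (limma-voom adjusted p = 0.00013) and -5.78 ± 0.83 in KO (4.30e-06). At Hist1h4n 96.2% of the 25-base words recurred elsewhere, so the density counted there is uncertain.

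The linker histone genes differed in their calls. The testis gene Hist1h1t was called for H3K4me3, and 4 of the other 5 H1 genes, Hist1h1b, Hist1h1c, Hist1h1d and Hist1h1e, were called for H3K27me3 in both genotypes. Hist1h1b had 187 and 11 H3K27me3 fragments in WT and 218 and 19 in KO against 2 and 7, and 0 and 9, with H3K4me3. Its H3K27me3 density of 34.3 ± 3.97 was the highest of all members in WT.

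Hist1h1e had 136 and 7 H3K27me3 fragments in WT and 203 and 16 in KO, against 0 and 1 with H3K4me3 in either genotype. Its log2 ratio of -6.12 ± 0.96 in WT was the lowest of the 67 in the fit. Hist1h1c had 82 and 7 H3K27me3 fragments in WT and 105 and 11 in KO, and 2 and 4, and 1 and 2, with H3K4me3. Hist1h1d was called for both marks against IgG, over a window of 8425 bp that reaches well beyond its coding part.

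Hist1h1a, the remaining H1 gene, carried both marks. It had 14 and 30 H3K4me3 fragments in WT and 22 and 55 in KO, and 50 and 4 H3K27me3 fragments in WT and 87 and 8 in KO, with 0 in each IgG library. The densities of 9.08 ± 1.66 and 10.7 ± 1.08 in WT did not differ beyond their error, with a log2 ratio of -0.25 ± 0.65 and a limma-voom adjusted p of 0.750. These profiles come from pools of sorted cells, so both marks in the same cell and each mark in different cells cannot be told apart.

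H4 genes fell on both sides. In WT 3 of 13 were called for H3K4me3 and 7 for H3K27me3, and in KO 5 and 7. Hist1h4b had 11 and 51 H3K4me3 fragments in WT and 32 and 65 in KO, and 4 and 0, and 8 and 5, with H3K27me3. Hist1h4a had 10 and 39 in WT and 31 and 94 in KO. Hist1h4d had 0 H3K4me3 fragments in each of the 4 libraries and 66 and 8 H3K27me3 fragments in WT and 91 and 12 in KO, so that H3K27me3 was at least 23.7-fold higher in WT and at least 36.0-fold higher in KO. Hist1h4j had 1 and 1 H3K4me3 fragments and 48 and 2 H3K27me3 fragments in WT.

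Many H2A and H2B genes are arranged head to head. Of 12 such pairs with starts 176 to 306 bp apart, both partners had the same call in 10 in WT and in 12 in KO and 0 pairs had opposite calls. In 4 of these pairs in WT and 5 in KO the same call means that neither partner was called. Partners in a pair share fragments, since their windows overlap. In WT the partners were both called for H3K4me3 in 2 pairs, the testis pair and Hist2h2ac with Hist2h2be, and both for H3K27me3 in 4. Over the class, 7 of 18 H2A genes and 3 of 18 H2B genes were called for H3K4me3 in WT, and 4 and 7 for H3K27me3. Hist1h2bp, the H2B gene with the highest H3K4me3 after the testis member, had 34 and 68 fragments in WT and 72 and 107 in KO against 21 and 1, and 18 and 6, with H3K27me3. At the low end, Hist1h2ak had 2 and 2 H3K4me3 fragments and 45 and 2 H3K27me3 fragments in WT, while Hist1h2ac had few of either, with 4 and 10, and 14 and 1. Hist2h2bb had 0 and 4 H3K4me3 fragments and 5 and 1 H3K27me3 fragments in WT.

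The H3 genes had the lowest share of calls in WT. In WT 3 of 12, Hist1h3a, Hist2h3c1 and Hist2h3c2, were called for H3K4me3 and 0 for H3K27me3, and in KO Hist1h3e was added for H3K27me3. Hist1h3a had 13 and 53 H3K4me3 fragments in WT and 32 and 94 in KO. Hist1h3d, with 3 and 16 H3K4me3 and 47 and 9 H3K27me3 fragments in WT, and Hist1h3h, with 3 and 4 and 22 and 0, were the lowest of the class and passed in neither direction in WT.

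The calls were also read by position within Hist1. In the block of 18 genes from Hist1h2bl to Hist1h2br (chr13:21715763-21837530), 12 were called for H3K27me3 and 1, Hist1h2bp, for H3K4me3 in WT, with median densities of 9.83 and 1.77. In the block of 29 genes from Hist1h4h to Hist1h1a (chr13:23531050-23764406) the WT calls were 9 and 5, and the medians 3.93 and 2.90. The block of 5 genes from Hist1h2ah to Hist1h2bj had 0 and 1, Hist1h2ag. Outside Hist1, Hist3h2a had 26 and 108 H3K4me3 fragments in WT and 70 and 180 in KO, with a density of 13.1 ± 3.68 and 16.7 ± 0.243, while Hist3h2ba had 3 and 8 in WT and 27 and 1 with H3K27me3. Hist4h4 had 11 and 7 in WT and 18 and 22 in KO and was called higher in H3K4me3 than in H3K27me3 in KO alone. Its H3K4me3 difference between KO and WT, 0.71 ± 0.63 on the log2 scale, did not pass (limma-voom adjusted p = 0.99997), and the genotype difference of the ratio of both marks was not tested.

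Signal over IgG was examined next. In WT 18 of 62 members tested (29.0%) were called higher in H3K4me3 than in IgG, against 31.7% of all 18854 genes tested, and in KO 25 of 62 (40.3%) against 41.1%. For H3K27me3 the counts were 22 of 57 (38.6%) in WT against 19.3% of 15895 genes, and 28 of 57 (49.1%) in KO against 21.5%. By limma-voom the share of members called for H3K4me3 was thus near that of all genes and the share for H3K27me3 was above it, but both readings changed with the setting. Limma-trend called 40 of 62 members (64.5%) for H3K4me3 in either genotype, against 38.2% of all genes in WT and 36.5% in KO. With no filter H3K27me3 gave 7 of 66 members (10.6%) in WT, against 11.7%. In windows around the start it gave 25 of 54 members (46.3%) in WT against 54.0%, and 30 of 54 (55.6%) in KO against 58.5%. Scaling by the median of ratios gave 9 (14.5%) for H3K4me3 in WT against 17.8%, and 15 (24.2%) in KO against 25.9%. Members called for both marks were Hist1h1d and Hist1h1a in WT, and Hist1h3f in addition in KO. The 5 members with the smallest adjusted p for H3K27me3 over IgG in WT were Hist2h4, Hist1h1d, Hist1h1b, Hist1h1e and Hist1h2be.

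These calls rest on few IgG fragments. No member had more than 2 fragments in an IgG library, and 54 and 63 of the 67 members were at 0 in the WT libraries, where 3 fragments correspond to 9.32 fragments per 1000000 over the group. Leaving out either IgG library of a genotype lowered the number of members called for H3K4me3 and for H3K27me3 in that genotype. The share of all genes called fell too. In these fits the share of members called for H3K27me3 was below that of all genes. Leaving out replicate 2 of WT H3K4me3 lowered its count, and leaving out replicate 1 of H3K27me3 lowered that of its mark in both genotypes. The shares of all genes fell as well. Without replicate 1 of H3K27me3 the share of members called for it stayed above that of all genes.

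No member was called higher in H3K9me3 than in IgG, with 0 of 40 tested in either genotype by limma-voom and by limma-trend, against 2.12% of 18828 genes in WT and 3.08% in KO. At an unadjusted p under 0.05, 25 of 40 members in WT and 14 of 40 in KO passed this fit. Of all genes, 49.1% and 49.6% passed. Of the 40 members, 1 (WT) and 2 (KO) had a fitted difference above 0. Neither this sign nor the lack of calls can be read as absence of H3K9me3, because depth limits the comparison. IgG was at 0 for 54 and 63 of the 67 members in the WT libraries, which held 162232 and 159611 fragments. The KO libraries of IgG had 54 and 57 members at 0. The median member had 2 H3K9me3 fragments in each WT library, out of 6148973 and 5009169. At this depth a count of 0 in IgG cannot be ranked against so few H3K9me3 fragments. Calls of lower H3K9me3 than IgG were not used, because this fit called unchanged genes lower when it was tested on simulated data. H3K4me3 was higher than H3K9me3 at 53 of 66 members in WT (80.3%), against 62.4% of 20925 genes, and at 55 of 66 in KO (83.3%), against 64.0%. Under scaling by the median of ratios these counts fell to 22 and 18, against 26.8% and 27.2% of all genes.

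KO and WT spermatids were then compared at the members. By limma-voom, 0 of 61 members tested were called in H3K4me3, 0 of 55 in H3K27me3 and 0 of 35 in H3K9me3, and no member had enough fragments to be tested in IgG. Over all genes 0 of 18509, 0 of 14183 and 0 of 18228 were called (0% each), and limma-trend also called 0. With the sibling pair as a block, 51 of 18228 genes (0.280%) were called higher in KO in H3K9me3, with 0 members among them. At an unadjusted p under 0.05, 1, 0 and 0 members passed, against 72 (0.389%), 13 (0.0917%) and 104 (0.571%) of all genes. These shares lie well below the proportion of 0.05 expected without any difference. The fit was thus conservative, and the lack of calls does not show equal levels. The median SE of the members' log2 differences was 0.57 in H3K4me3, 0.83 in H3K27me3 and 1.24 in H3K9me3, so differences of this order lay within the error.

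The member that passed without adjustment was Hist1h2ab, an H2A gene. It had 10 and 19 H3K4me3 fragments in WT and 7 and 9 in KO, a log2 difference of -1.56 ± 0.54 with an unadjusted p of 0.0158 and an adjusted p of 0.99997 by limma-voom. The largest differences in the other direction, such as 1.78 ± 0.97 for Hist1h2ao from 9 and 1 fragments in WT and 11 and 14 in KO, did not pass. Among the 61 members, H3K4me3 was higher in KO in both sibling pairs at 20, lower in both at 16 and divided at 25. For H3K27me3 these numbers were 13, 13 and 29 of 55.

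**Figure D4:**
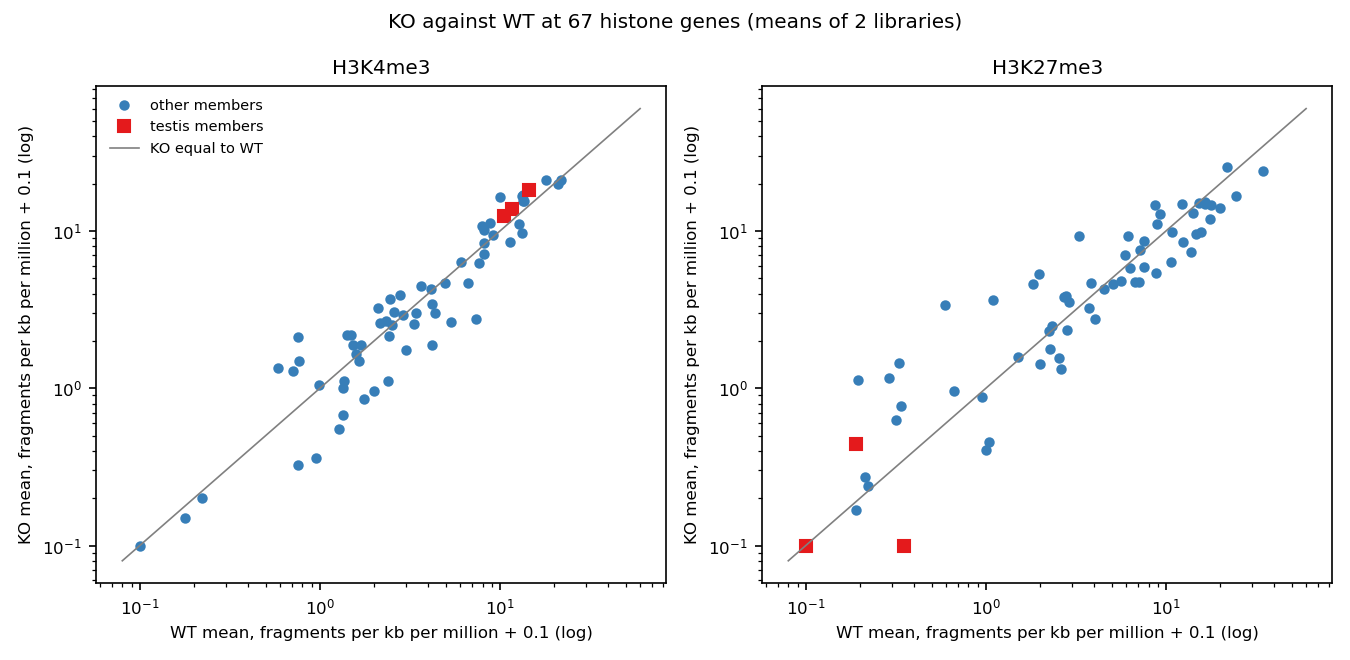
Mean density in KO (y axis) against WT (x axis), as fragments per kb per 1000000 plus 0.1 on log scales, for H3K4me3 (left) and H3K27me3 (right), with 1 point per member, squares for the testis genes and the grey line where KO equals WT. Points follow the line in both panels, with rank correlations over the 67 members of 0.93 and 0.91, and the testis genes lie just above it in H3K4me3.

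Over the gene body windows of the testis genes, H3K4me3 was higher in KO by 0.21 ± 0.32 (Hist1h1t), 0.33 ± 0.32 (Hist1h2ba) and 0.24 ± 0.37 (Hist1h2aa) on the log2 scale (± SE). None of these passed the limma-voom test. The direction for Hist1h1t depended on the window. In windows around the start its level, scaled to library size, was 11.9 in WT and 10.9 in KO. Hist1h2ba (14.1 and 17.8) and Hist1h2aa (13.8 and 16.3) stayed higher in KO there. Summed over the merged gene body windows of the testis genes, H3K4me3 density was 10.5 and 11.5 in the WT libraries and 13.4 and 13.4 in the KO libraries. The sum was higher in KO in both pairs, by 0.34 and 0.23 on the log2 scale. The H3K9me3 sum over the same windows had the opposite sign, with differences of -0.59 and -0.48 from 11 and 8 fragments in WT and 8 and 6 in KO. Over all merged member windows the H3K4me3 density was 3.63 and 3.38 in WT and 3.92 and 3.40 in KO, a mean difference of 0.062 with an SD between replicates of 0.11. For H3K27me3 the summed densities were 4.74 and 4.85 in WT and 4.84 and 3.95 in KO. With 2 animals against 2, an exact permutation test of such a sum cannot give a two-sided p below 0.333.

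Small fragments took a larger share in KO over these windows, as they did over the whole libraries. Small fragments were those of at most 120 bp, shorter than nucleosomal DNA, and large ones those of at least 150 bp. Of the H3K4me3 fragments in the merged member windows, 28.6% and 23.1% were small in WT and 39.3% and 37.3% in KO. On the log2 scale, small over large fragments rose from WT to KO by 0.77 and 1.04 in the sibling pairs, and over the whole libraries by 0.79 and 0.97.

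The direction was the same for the other marks. For H3K27me3, 11.1% and 14.5% of member fragments were small in WT and 15.7% and 28.8% in KO, with log2 differences of 0.56 and 1.16 in the pairs against 0.68 and 0.71 over the libraries. For H3K9me3 the differences were 0.52 and 0.34 against 0.57 and 0.53. In IgG the members held only 4 to 16 fragments per library, and the pairs differed by -0.081 and 2.07, against 0.48 and 0.48 over the libraries. Over the testis windows the H3K4me3 differences were 0.15 and 0.47, from 33 to 182 fragments. Whether they differ from the library values was not tested.

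**Figure D5:**
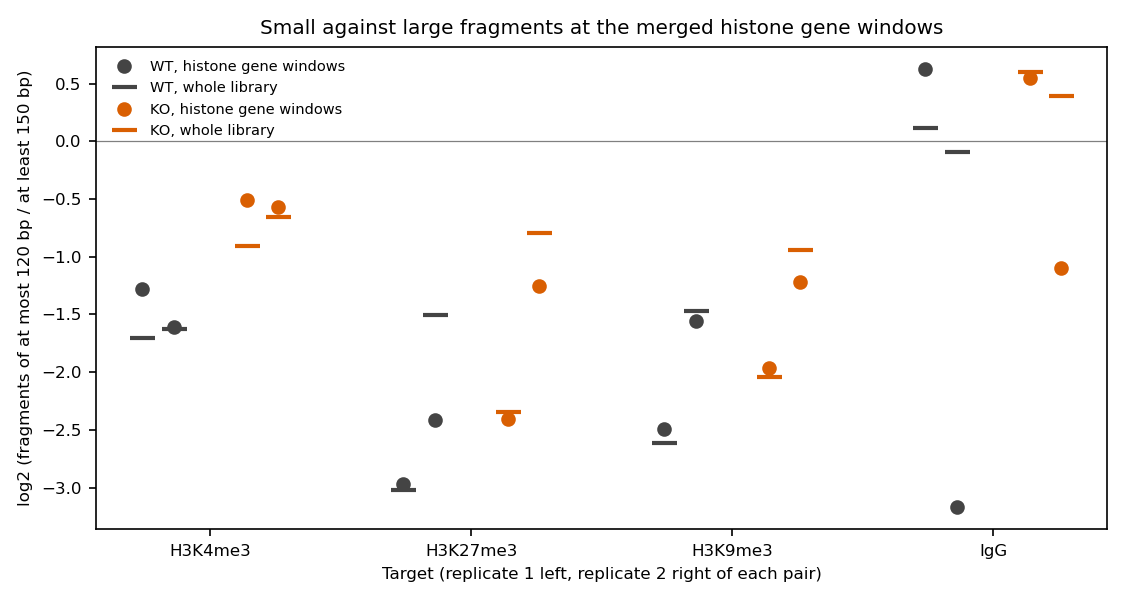
Log2 ratio of fragments of at most 120 bp to fragments of at least 150 bp (y axis) for each target (x axis), with dots for the merged windows of the 67 members, dashes for the whole library, grey for WT and orange for KO, replicate 1 left of replicate 2. KO dots lie above the WT dots of the same replicate in H3K4me3, H3K27me3 and H3K9me3, and the dashes move in the same direction.

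Genes outside the clusters gave a reference for the pattern. Over all genes tested in WT, 47.1% were called higher in H3K4me3 than in H3K27me3 and 21.5% lower, with a median log2 ratio of 1.57. In KO these values were 50.8%, 22.0% and 1.77. Of 17 replacement histone genes, which are expressed outside S phase, 15 were tested and 11 were called higher in H3K4me3 than in H3K27me3 in WT and 0 lower, with a median log2 ratio of 3.80. In KO 12 were called higher and 2 lower, with a median of 4.55, and the 2 lower were Cenpa (-2.98 ± 1.003), the centromeric H3 gene, and H2afy2 (-1.28 ± 0.36), a macroH2A gene. Those called in WT include H2afx (5.23 ± 1.05), H3f3b (3.80 ± 0.81) and Hils1, a spermatid linker histone gene (3.82 ± 1.03), while H1f0 (0.71 ± 0.86) and Cenpa (-2.39 ± 1.09) did not pass in WT. Of 13 genes for transcription and processing of histone messages, all 13 were called for H3K4me3 in both genotypes. Npat, the activator of histone gene transcription, had a log2 ratio of 5.01 ± 0.96 and Slbp, which binds the stem loop, 6.26 ± 1.01 in WT. Among 49 other protein-coding genes within the Hist1 span, largely vomeronasal receptor genes, 3 of 33 tested were called for H3K4me3 and 2 for H3K27me3 in WT, with a median log2 ratio of 0.0068, and 4 and 2 in KO with a median of -0.22.

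Sequence composition was compared between the called groups. The median observed-to-expected CpG ratio over 1 kb around the start was 0.879 for members and 0.552 for all genes. It was 0.860 in the 17 members called for H3K4me3 in WT, 0.844 in the 22 called for H3K27me3 and 0.888 in the other 28. The testis genes were lower, at 0.438 (Hist1h1t), 0.681 (Hist1h2ba) and 0.649 (Hist1h2aa). CCAAT was present in 16 of 17, 16 of 22 and 24 of 28 of these groups, and the octamer in 5, 3 and 7. Among the 23 members with at most 20% of their words repeated in the genome, 8 were called for H3K4me3, 8 for H3K27me3 and 7 for neither in WT, so both states were also present where fragments could be placed with most certainty.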

How the data were processed

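AutoCUT&RUN libraries of sorted haploid spermatids were analysed in 16 samples. The authors aligned paired ends to mm10 with Bowtie2 (2.3.4.3 in the submitters' processing notes) and deposited lists of mapped fragments without scaling. Each deposited row holds a fragment's coordinates and its length in bp, and the lists held fragments with identical coordinates, which were counted once. Repeats of a fragment can be PCR copies or separate molecules at the same place, so counts in crowded windows may be understated.

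Groups followed the labels. Fragments on 19 autosomes, X and Y that overlapped a gene body with 500 bp on either side were counted for 21938 protein-coding genes (Python 3.11.15). Genes with at least 10 fragments over the libraries of a fit were tested with limma-voom (limma 3.58.1) on the library total, with Benjamini-Hochberg adjustment at 0.05 over all genes tested. Targets were compared in 8 libraries, with a contrast per genotype, and KO with WT in 4. Fits were tested on simulated data. Alternatives were all deposited fragments, windows of 500 bp around the start, midpoints, median of ratios, no filter, limma-trend, a replicate block and leaving out libraries. Same-numbered samples come from sibling pairs or the same animal, and their deviations correlated between KO and WT at r of 0.54 (H3K4me3), 0.67 (H3K27me3), 0.77 (H3K9me3) and 0.45 (IgG). Between the compared targets within a genotype r ranged from -0.12 (H3K4me3 and H3K27me3, KO) to 0.44 (H3K4me3 and H3K9me3, WT). The sample titles carry a code that changes with the replicate number, so sibling pair and code cannot be told apart.

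The floor was 3 fragments, and 95% intervals of ratios are exact binomial ones. Members, lists and tests were chosen with earlier results of these data known. Named were the testis genes, the 2 highest and 2 lowest members of each class in WT H3K4me3, members called in KO against WT, up to 5 called over IgG for H3K27me3 and for H3K9me3, and members outside Hist1. Hist1h2ab, Hist1h2ao, Hist1h2ap, Hist1h2bq, Hist1h2br, Hist1h2ag, Hist1h3e, Hist1h3f, Hist1h4m, Hist1h4n and the genes of other lists were named after their values were seen. One promoter sequence is not reported here.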

Additional observations from a re-analysis of the deposited data

How the results depend on the processing

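Of 273 values under the alternatives, 239 stayed within 1.5 times the count, within 1 SD or on the same side of the threshold. Those unchanged include all counts for H3K9me3 over IgG and for KO against WT, which were 0 under every setting. In IgG 0 members entered the main fit of KO against WT, so its count of 0 carries no information. Among the 64 values of KO minus WT sums and small over large fragments, which have no test, 14 had the opposite sign. Most other results are counts of called members, which cannot change sign. The log2 differences of the testis genes over IgG could, and kept theirs. Without single libraries the members called higher in H3K4me3 than in IgG ranged from 0 to 16 in WT and 0 to 25 in KO, those for H3K27me3 over IgG from 1 to 23 and 2 to 30, those for H3K4me3 over H3K27me3 from 5 to 17 and 9 to 19, those for H3K27me3 over H3K4me3 from 8 to 23 and 12 to 24, and those for H3K4me3 over H3K9me3 from 43 to 52 and 44 to 56. The lowest values of the comparison of H3K4me3 with H3K27me3 came without H3K27me3 replicate 1 (5 in WT and 9 in KO) and without H3K4me3 replicate 2 (8 and 12 in the other direction). Fewer samples then enter the fit. At the lowest counts over IgG, and for H3K4me3 over H3K27me3 or H3K9me3, the share of all genes called fell as well. For H3K27me3 over H3K4me3 that share was not compared.

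Scaling by the median of ratios gave 9 (WT) and 15 (KO) for H3K4me3 over IgG, and 22 and 18 for H3K4me3 over H3K9me3. Limma-trend gave 40 and 40 for H3K4me3 over IgG. With no filter H3K27me3 over IgG in WT gave 7. The cause was not tested. The WT H3K4me3 calls of the 3 testis genes over IgG were lost without either WT IgG library. The replicate block, by animal or sibling pair, changed no count of called members by over 1.5 times (15 against 17 for H3K4me3 over H3K27me3 in WT). Under it 0 members were called in KO against WT for H3K4me3, H3K27me3 and H3K9me3.

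The summed H3K4me3 density in KO minus WT was -0.057 with every deposited fragment, against 0.062, and that of H3K27me3 was 0.032 with the median of ratios, against -0.13. Without single libraries the 4 sums ranged from -0.040 to 0.16 (H3K4me3), -0.28 to 0.014 (H3K27me3), -0.36 to 0.65 (H3K9me3) and -0.49 to 1.19 (IgG). The difference of KO minus WT in small over large fragments (log2) was 0.91 for H3K4me3, 1.22 with every deposited fragment and 0.73 with small of at most 100 bp and large from 140 to 200 bp. For IgG it was 0.99, and -1.24 in windows around the start. Without single libraries it ranged from 0.74 to 1.07 (H3K4me3), 0.29 to 1.44 (H3K27me3), -0.033 to 0.90 (H3K9me3) and -0.90 to 2.89 (IgG). Depth limits the IgG comparisons and the H3K27me3 libraries of replicate 2. The counts of members called for H3K27me3 over H3K4me3 and the group with few repeated words were added after the data were seen.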
